A study of Mus musculus with 12 samples.

Results

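The genes described here are 10 that define motoneurons or their use of acetylcholine, taken by symbol from expression tables of 12 mRNA sequencing libraries. They are the transcription factors Mnx1, Isl1, Isl2, Lhx3 and Foxp1, the acetylcholine genes Chat, Slc18a3, Slc5a7 and Ache, and Chodl, a surface protein of fast motoneurons. Of the 10 genes, 9 were found among the 39174 gene identifiers of the tables, and Slc18a3 was not analysed here. The libraries came from primary motoneuron cultures of FVB mice. All carried the human SMN2 transgene, and all were either wild type at the mouse Smn locus (Smn+/+;SMN2, called control) or lacked the gene (Smn-/-;SMN2, called SMA after spinal muscular atrophy). Cultures were untreated or received 0.5 µM R-Roscovitine, a kinase inhibitor, which gave 4 groups of 3 libraries: untreated control, untreated SMA, treated control and treated SMA. The labels refer to a published culture protocol and give no age, and they do not state that libraries of the same group are separate cultures. The p-values below therefore measure only the spread between these libraries, which may be technical.

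Motoneurons are the cholinergic neurons of the ventral spinal cord that drive muscle. As they leave the cell cycle, the LIM homeodomain proteins Isl1 and Lhx3 act in a common complex that turns on motoneuron genes, Mnx1 and Isl2 help to hold that identity against interneuron programmes, and Foxp1 sets the limb-innervating columns. The same cells then express choline acetyltransferase (Chat), the vesicular acetylcholine transporter (Slc18a3) and the choline transporter (Slc5a7), while acetylcholinesterase (Ache) breaks the transmitter down and is made by many neurons.

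Levels are FPKM, fragments scaled to transcript length and to library depth, so that levels can be compared between genes. The targeted gene Smn1, whose protein assembles splicing ribonucleoproteins, was lower in SMA libraries. It stood at 30.9 to 51.2 FPKM in untreated control, 6.11 to 8.58 in untreated SMA, 38.2 to 45.1 in treated control and 5.04 to 7.35 in treated SMA libraries. Reads of the human SMN2 transcript may be among these. Depth, read from the steps between low values, was 19.5 to 28.7 M reads per library, with a mean of 22.2 M in SMA and 26.5 M in control libraries. From 14463 to 14581 genes reached 1 FPKM in a library. In such bulk libraries, fewer cells of a type and less RNA per cell cannot be told apart.

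The genes fell into 3 levels. Mnx1 was at 0 throughout, Isl1, Isl2, Lhx3, Chat and Slc5a7 were under 1 FPKM in all 12 libraries, and Foxp1, Ache and Chodl were above 1 FPKM in all 12. The plot of the 9 genes by library shows this gap.

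**Figure D1:**
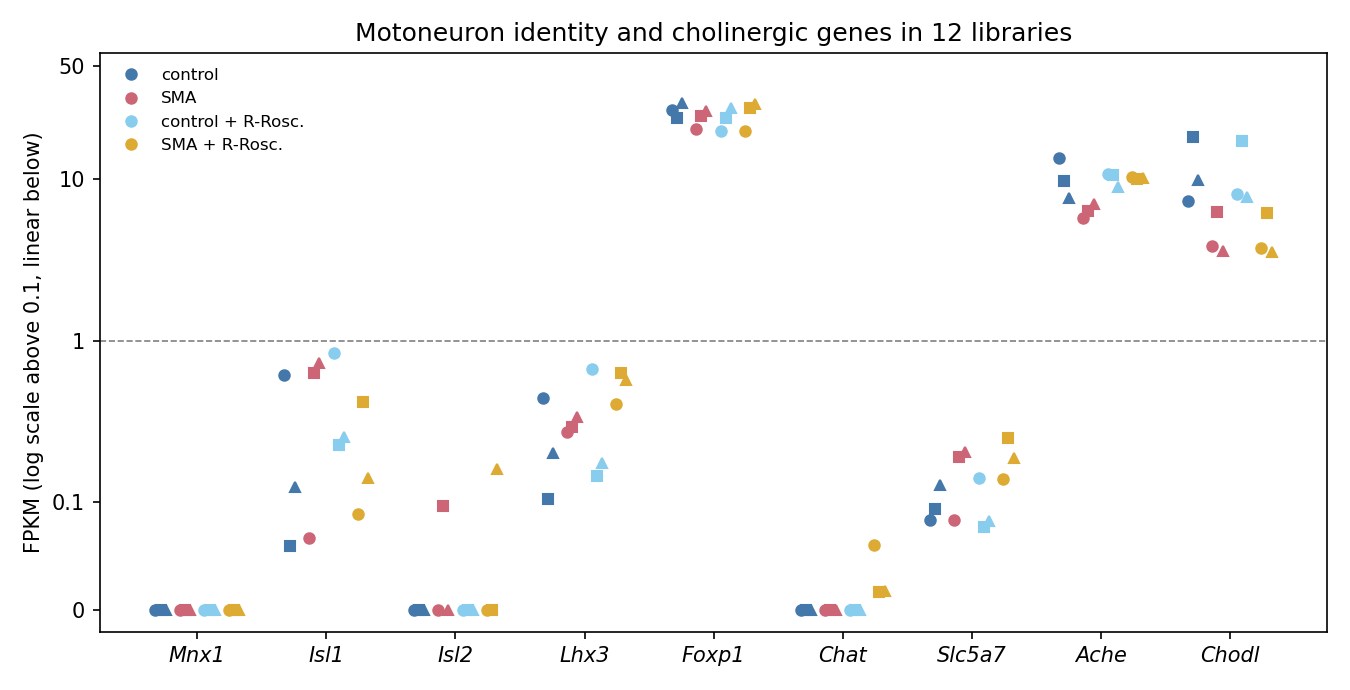
FPKM (vertical axis, log scale above 0.1 and linear below) of 9 genes in 12 libraries, coloured by group; circles, squares and triangles are libraries 1, 2 and 3, and the dashed line marks 1 FPKM. Mnx1 sits at 0 in every library, Isl1, Isl2, Lhx3, Chat and Slc5a7 stay under the line, and Foxp1, Ache and Chodl stay above it.

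The promoters of 2 genes at or near 0 and of 2 expressed ones are shown because this contrast runs through the results below. Each is the 250 bases before the start that RefSeq annotates on GRCm38.p6, written 5′ to 3′ on the gene's strand. These starts can differ from the loci given below. The Ache window lies inside the Ache locus, and the Mnx1 window partly inside the Mnx1 locus. Capitals mark TAAT or its reverse complement ATTA, the core letters bound by homeodomain proteins such as Mnx1, Isl1, Isl2 and Lhx3. The windows are chr5:29478471-29478720 (minus strand) for Mnx1, chr14:32465910-32466159 (minus strand) for Chat, chr5:137288004-137288253 (plus strand) for Ache and chr16:78930698-78930947 (plus strand) for Chodl.
Mnx1: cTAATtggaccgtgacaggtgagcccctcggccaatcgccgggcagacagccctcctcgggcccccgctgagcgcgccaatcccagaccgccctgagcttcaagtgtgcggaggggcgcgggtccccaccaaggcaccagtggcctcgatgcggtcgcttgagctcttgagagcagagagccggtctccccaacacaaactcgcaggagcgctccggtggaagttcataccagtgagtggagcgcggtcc
Chat: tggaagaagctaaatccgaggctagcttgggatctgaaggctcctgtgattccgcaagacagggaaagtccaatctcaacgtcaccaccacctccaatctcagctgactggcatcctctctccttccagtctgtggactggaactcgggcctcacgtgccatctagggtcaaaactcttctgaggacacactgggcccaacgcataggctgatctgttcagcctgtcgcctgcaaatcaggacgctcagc
Ache: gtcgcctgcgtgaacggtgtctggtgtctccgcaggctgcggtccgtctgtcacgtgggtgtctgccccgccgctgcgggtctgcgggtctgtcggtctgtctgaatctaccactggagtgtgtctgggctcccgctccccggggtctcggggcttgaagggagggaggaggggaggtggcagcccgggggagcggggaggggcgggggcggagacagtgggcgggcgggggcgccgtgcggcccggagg
Chodl: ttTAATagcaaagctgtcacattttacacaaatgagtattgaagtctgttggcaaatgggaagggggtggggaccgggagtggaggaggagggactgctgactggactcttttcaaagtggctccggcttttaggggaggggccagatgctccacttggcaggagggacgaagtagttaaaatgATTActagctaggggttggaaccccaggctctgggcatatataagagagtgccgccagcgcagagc
GC content was 66.4% in the Mnx1 window, with 21 CpG dinucleotides, and 54.8% in that of Chat, with 8. It was 73.6% in the Ache window, with 25 CpG dinucleotides, and 52% in that of Chodl, with 5. The Mnx1 window holds 1 TAAT match and the Chodl window 2, while the windows of Chat and Ache hold 0. Over all 32851 windows of the same length, 54.9% hold the 4 letters on either strand, and the medians are a GC content of 52.4% and 6 CpG dinucleotides. All 10 genes have at least 1 entry, and 7 of their 13 entries hold a match. A match is a description of letters and not of binding, and neither it nor GC content separates the genes at 0 from the expressed ones here.

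Among the transcription factors, Mnx1 (chromosome 5, 29473038 to 29478519), the homeodomain gene also known as Hb9, was listed at 0 in all 12 libraries. At these depths, 3 reads over its longest transcript of 2245 bases would be 0.0466 to 0.0685 FPKM, so a level under that was not detectable. Of 21300 protein-coding identifiers, 14.8% were likewise at 0 in all 12 libraries. Of 10493 tested genes with a mean of at least 5 FPKM, 2 had a 0 in any library. Those genes were chosen by level, so their share is not a like background for Mnx1.

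Isl1 (chromosome 13, 116298281 to 116309688), which is shared by motoneurons and sensory neurons, was detected in all 12 libraries but never reached 1 FPKM. Its FPKM were 0.610, 0.0593 and 0.125 in untreated control and 0.0674, 0.633 and 0.729 in untreated SMA libraries. With R-Roscovitine they were 0.845, 0.227 and 0.254 (control) and 0.0895, 0.417 and 0.143 (SMA). The groups overlapped throughout, and the highest library was 14.2 times the lowest. The lower bound of the interval that Cufflinks gives with each value was above 0 in 5 of the 12 libraries. None of the 4 comparisons between groups of 3 passed an exact two-sided permutation test, where the smallest p possible is 0.1 (p = 0.4 and 0.5 for genotype without and with treatment, 0.5 and 0.4 for treatment in control and SMA).

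Isl2 (chromosome 9, 55538672 to 55546180), a near relative of Isl1 found in motoneurons as they mature, was at 0 in 10 libraries. It was at 0.0970 FPKM in the second untreated SMA library and at 0.161 FPKM in the third treated SMA library. The interval included 0 in both.

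Lhx3 (chromosome 2, 26200212 to 26208289), the partner of Isl1 in the motoneuron complex that is also used by V2a interneurons, had FPKM of 0.441, 0.106 and 0.202 in untreated control and 0.272, 0.293 and 0.340 in untreated SMA libraries. With R-Roscovitine they were 0.669, 0.147 and 0.177 (control) and 0.405, 0.633 and 0.573 (SMA). All 3 treated SMA libraries were above the 3 untreated ones, by a mean of 0.24 on the log2(FPKM + 1) scale with p = 0.1, the smallest an exact permutation test of 3 against 3 can give. The other 3 comparisons overlapped, with exact p of 0.4 to 0.7. Among the genes fitted below, 6.17% separated the SMA groups in this direction. Lhx3 itself was too low for that fit, so the share is not a like background. The interval of Lhx3 lay above 0 in 8 of 12 libraries.

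Isl1 and Lhx3 were both highest, within the control groups, in library 1 of either treatment. The summed level of 12 pan-neuronal genes was also highest in those libraries, at 1533 FPKM untreated and 1640 FPKM treated, against 1038 to 1166 FPKM in the other 4 control libraries. Within the SMA groups the summed level was again highest in library 1 of either treatment, at 1023 FPKM untreated and 1283 FPKM treated. There, however, Isl1 (0.0674 and 0.0895 FPKM) and Lhx3 (0.272 and 0.405 FPKM) were at their lowest within each SMA group. The part of the summed pan-neuronal level in the levels of Isl1 and Lhx3 was not tested.

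Foxp1 (chromosome 6, 98925338 to 99522721), which motoneurons of the limb columns share with many other neurons, was the most abundant of the 9 genes. It stood at 26.7, 23.8 and 29.3 FPKM in untreated control, 20.4, 24.4 and 26.2 in untreated SMA, 19.8, 23.9 and 27.3 in treated control and 19.7, 27.5 and 29.2 in treated SMA libraries. The 4 groups overlapped, with the highest library 1.49 times the lowest. No difference of Foxp1 passed. In limma's fit over 14982 genes the SMA minus control difference was -0.12 ± 0.16 (SE) on the log2(scaled FPKM + 1) scale without treatment (adjusted p = 0.750) and 0.11 ± 0.16 with it (adjusted p = 0.810).

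Of the genes for acetylcholine itself, Chat (chromosome 14, 32408203 to 32465909), the enzyme that makes it, was listed at 0 in 9 libraries. The 3 treated SMA libraries had 0.0605, 0.0170 and 0.0182 FPKM. Over the longest transcript of 2858 bases these values come to 4, 1 and 1 reads, each within 0.0683 of a whole read, or 6 reads in the whole series. The treated SMA libraries thus lay above the other groups (exact permutation p = 0.1 against either untreated SMA or treated control, the smallest possible). With 3 reads worth 0.0366 to 0.0538 FPKM, no ratio can be given. An antisense gene that overlaps Chat reached up to 0.128 FPKM, and whether reads of opposite strands were told apart is not known. Among the fitted genes, 8.9% had all treated SMA libraries above all treated control libraries, and 6.17% had them above all untreated SMA libraries. Chat was too low for that fit, so these shares are not a like background for 1 read against 0. Depth was 19.5 to 23.5 M reads in those 3 libraries and 21.2 to 28.7 M in the other 9, and its part was not tested.

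Slc5a7 (chromosome 17, 54273594 to 54299034), the high-affinity choline transporter that feeds acetylcholine synthesis at the terminal, was low but present in every library. Its values were 0.0839, 0.0943 and 0.128 FPKM in untreated control, 0.0842, 0.191 and 0.204 in untreated SMA, 0.141, 0.0773 and 0.0828 in treated control and 0.140, 0.249 and 0.188 in treated SMA libraries. Over the longest transcript these are 10 to 27 reads per library and 203 in all, each within 0.0149 of a whole read, and the interval lay above 0 in all 12 libraries. The 2 genotypes overlapped without treatment (exact permutation p = 0.3) and with it (exact permutation p = 0.2), and so did the treatments (p = 0.9 in control and 0.7 in SMA, by the same exact test).

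Other neuronal transmitters were far better represented. Gad1, which makes GABA, ranged over the libraries from 52.8 to 147 FPKM, and Slc32a1, which loads GABA and glycine into vesicles, from 11.0 to 30.1 FPKM. The glycine transporter Slc6a5 ranged from 11.8 to 35.6 FPKM and the vesicular glutamate transporter Slc17a6 from 16.6 to 49.0 FPKM. Together with Gad2 these genes summed to between 509 and 3017 times the sum of Chat and Slc5a7 in the same library. The neuronal cytoskeletal genes Tubb3 and Map2 stood at 92.7 to 204 and 237 to 327 FPKM.

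Of 16 interneuron transcription factors, 7 reached 1 FPKM in every library and 5, among them En1 and Evx1 of ventral interneurons, stayed under it in every library. Pax2 and Lbx1, which mark dorsal inhibitory and association interneurons, ranged from 8.70 to 23.9 and from 6.89 to 27.1 FPKM. Lmx1b and Tlx3, which mark dorsal excitatory interneurons, ranged from 2.68 to 15.1 and from 1.66 to 9.89 FPKM. By these markers the libraries, labelled as motoneuron cultures, held little or no RNA of the defining motoneuron genes Mnx1, Isl2 and Chat. How many cells of each type the cultures held was not measured.

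**Figure D2:**
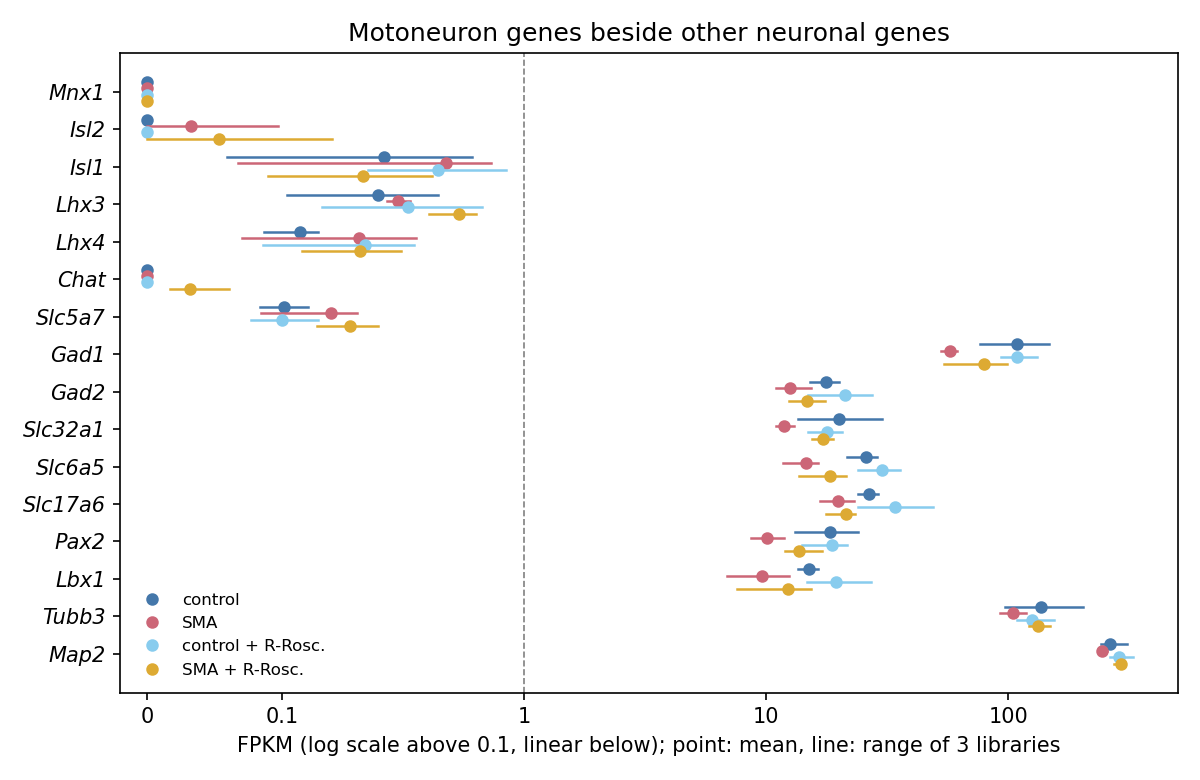
FPKM (horizontal axis, log scale above 0.1 and linear below) of motoneuron genes, of genes for other transmitters, of interneuron factors and of 2 pan-neuronal genes; points are means and lines the range of 3 libraries per group, and the dashed line marks 1 FPKM. Mnx1, Isl2, Isl1, Lhx3, Lhx4, Chat and Slc5a7 lie below the line, and Gad1 reaches 52.8 to 147 FPKM.

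A wider list held 26 genes of the motoneuron transcriptional network. Of these, 15 reached 1 FPKM in every library, among them the cofactors Ldb1 (41.5 to 62.2 FPKM), which bridges LIM homeodomain proteins, and Lmo4 (99.9 to 120 FPKM), which competes for Ldb1. Also among the 15 were Lhx1, a factor of lateral limb motoneurons and of interneurons (8.07 to 25.3 FPKM), Etv4, a factor of motor pools (7.34 to 16.4 FPKM), and Nkx6-1, a factor of ventral progenitors and motoneurons (2.09 to 6.25 FPKM). Under 1 FPKM in every library were 5 genes, among them Lhx4, a relative of Lhx3 (0.0707 to 0.358 FPKM), Onecut1, Onecut2 and Mecom. Of 24 surface, pool and subtype genes, 19 reached 1 FPKM in every library. Among those, Ret, a receptor for GDNF, stood at 1.38 to 3.35 FPKM and Ngfr, the p75 receptor by which embryonic motoneurons are often isolated, at 1.36 to 5.08 FPKM. Prph, the intermediate filament peripherin of motoneurons and sensory neurons, stood at 0.320 to 1.71 FPKM.

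Most genes of general choline handling were expressed. Of 20 further genes of acetylcholine and choline metabolism, 15 reached 1 FPKM in every library, including the choline kinase Chka (20.2 to 30.4 FPKM), the choline transporter Slc44a1 (14.8 to 23.7 FPKM) and Bche, butyrylcholinesterase (9.54 to 17.8 FPKM). The other 5, which include Slc10a4, a protein of cholinergic vesicles (0.00618 to 0.218 FPKM), and Colq, the collagen tail of junctional acetylcholinesterase (0 to 0.244 FPKM), stayed under 1 FPKM in all 12. Prima1, the membrane anchor of acetylcholinesterase in brain, stood at 1.18 to 2.98 FPKM. Of 16 nicotinic receptor subunits, 4 reached 1 FPKM in every library (Chrna4, Chrna7, Chrnb1 and Chrnb2), and 11 stayed under it. Chrm2, Chrm3 and Chrm4 reached it among 5 muscarinic receptors.

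Ache (chromosome 5, 137287519 to 137294466) was lower in untreated SMA than in untreated control libraries and stood at the control level in treated SMA libraries, but no comparison of it passed the test. Its values were 13.5, 9.69 and 7.67 FPKM in untreated control, a mean of 10.3 ± 2.95 (SD, n = 3), and 5.74, 6.29 and 6.999 in untreated SMA libraries, a mean of 6.34 ± 0.629 (SD, n = 3). With R-Roscovitine they were 10.7, 10.6 and 8.90 in control and 10.2, 9.96 and 10.1 in SMA libraries, with means of 10.1 ± 1.01 and 10.1 ± 0.127 (SD, n = 3 each). All 3 untreated SMA libraries were below every other library of the series, and the other 3 groups overlapped.

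By mean, Ache was lowest in untreated SMA, and the other 3 groups had means of 10.1 to 10.3 FPKM, with no difference past the test. Untreated control and treated SMA were not compared in the fit. The genotype difference without treatment was -0.55 ± 0.17 (SE, log2) with a limma adjusted p of 0.220, and with treatment it was 0.02 ± 0.17 (adjusted p = 0.966). The treatment difference was 0.60 ± 0.17 in SMA (limma unadjusted p = 0.00329, adjusted p = 0.999) and 0.03 ± 0.17 in control (adjusted p = 0.9997). The difference between these treatment effects was 0.58 ± 0.24 (limma unadjusted p = 0.0304, adjusted p = 0.9999). Groups that did not overlap in the direction of Ache were seen for 12.5% of tested genes in the untreated genotype comparison and for 6.17% in the treatment of SMA.

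Values of 12 pan-neuronal genes are given beside those of Ache. All 12 had lower fitted values in untreated SMA than in untreated control (median -0.40, against -0.01 over all tested genes), and all 12 had higher ones in treated than in untreated SMA (median 0.34, against 0.00 over all). Of them, 0 passed limma's adjusted test in either comparison, where 0.00667% and 0% of all genes did and 2115 and 361 genes had an unadjusted p under 0.05. In the genotype comparison with R-Roscovitine, where Ache was at 0.02, 9 of the 12 were lower and 3 higher, with a median of -0.19. Their summed level was 1038 to 1533 FPKM in untreated control, 865 to 1023 in untreated SMA, 1103 to 1640 in treated control and 998 to 1283 in treated SMA libraries. The part of this in the level of Ache was not tested. The 3 genes whose pattern over the 12 libraries was most like that of Ache were Acot7, an acyl-CoA thioesterase (Pearson r = 0.940 of the log2 values), Sncb, the neuronal protein beta-synuclein (r = 0.938), and Dos (r = 0.934). Sncb stood at 36.0 to 43.3 FPKM in untreated SMA libraries and at 50.5 to 90.7 FPKM in the other 9. These correlations describe libraries that share depth and composition and carry no test.

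Chodl (chromosome 16, 78930948 to 78951733), which encodes chondrolectin, was lower in SMA than in control libraries both with and without R-Roscovitine. Of the 3 genes in limma's fit (Foxp1, Ache and Chodl), Chodl alone had a difference that passed the test. The other 6 genes were outside that fit and could not pass. Mnx1 was at 0 throughout, and the exact permutation test used for the rest gives no p under 0.1. Its values were 7.32, 18.1 and 9.82 FPKM in untreated control and 3.87, 6.23 and 3.60 in untreated SMA libraries. With R-Roscovitine they were 8.10, 17.2 and 7.71 in control and 3.76, 6.13 and 3.53 in SMA libraries. All 6 SMA libraries lay below all 6 control libraries, the highest SMA library at 6.23 and the lowest control library at 7.32 FPKM.

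The control mean of Chodl was 2.57 times the SMA mean without treatment (11.8 ± 5.66 against 4.57 ± 1.45 FPKM, SD, n = 3 each) and 2.46 times with it (11.0 ± 5.37 against 4.47 ± 1.44). Averaged over the treatments, the SMA minus control difference was -1.08 ± 0.24 (SE, log2), with a limma adjusted p of 0.0314. In that comparison 4.83% of tested genes passed, 1.8% as lower in SMA, and 1.79% had all 6 SMA libraries below all 6 control libraries. Within either treatment alone the difference did not pass (-1.10 ± 0.34, limma adjusted p = 0.224 untreated, and -1.06 ± 0.34, adjusted p = 0.239 treated). There, 12.5% and 8.87% of tested genes did not overlap in this direction. The treatment difference of Chodl was -0.06 ± 0.34 in control and -0.03 ± 0.34 in SMA, and the effect of genotype differed between treatments by 0.04 ± 0.48 (limma adjusted p of 0.9997, 0.999 and 0.9999).

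Same-numbered libraries of a genotype deviated together across treatments, as Chodl itself shows, with library 2 the highest of its genotype in all 4 groups. With each such pair averaged to 1 value, the difference of Chodl no longer passed (limma adjusted p = 0.189), and 1 gene passed in place of 723. It also missed the threshold without control libraries 1 of both treatments (-1.30, adjusted p = 0.0552) or without control libraries 2 (-0.72, adjusted p = 0.0620), both by limma. Leaving out single libraries gave -1.22 to -0.90, and limma's adjusted p exceeded the threshold without untreated control library 2, treated control library 1, or library 1 or 3 of either SMA group (adjusted p of 0.0612 to 0.0924). Control libraries 2 also had the highest levels of the fibroblast collagens Col1a1 (63.1 and 63.2 FPKM, against 7.10 to 18.1 in the other 10 libraries) and Col1a2 (21.7 and 21.9 FPKM) and of the retinoic acid enzyme Aldh1a2 (15.2 and 18.0 FPKM). Over the 10 fibroblast markers, the summed level was 186 to 367 FPKM in untreated control, 133 to 215 in untreated SMA, 165 to 332 in treated control and 136 to 237 in treated SMA libraries. The 7 fitted ones had a median difference of -0.36 between the genotypes, with 3 higher, 4 lower and 0 past limma's test. By highest library, Col1a1, Col1a2, Fn1 and Thy1 peaked in control, and Col3a1, Dcn, Lum, Pdgfra, Postn and Fbln1 peaked in SMA. Lum and Col3a1 were at or near 0 in several libraries. They reached 3.46 FPKM (treated SMA) and 2.93 FPKM (untreated SMA), against at most 0.0620 and 0.489 FPKM in control libraries. In the same averaged comparison all 12 pan-neuronal genes were lower in SMA, with a median of -0.30 and 0 past limma's test. The part of fibroblasts or neurons in the level of Chodl was not tested.

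**Figure D3:**
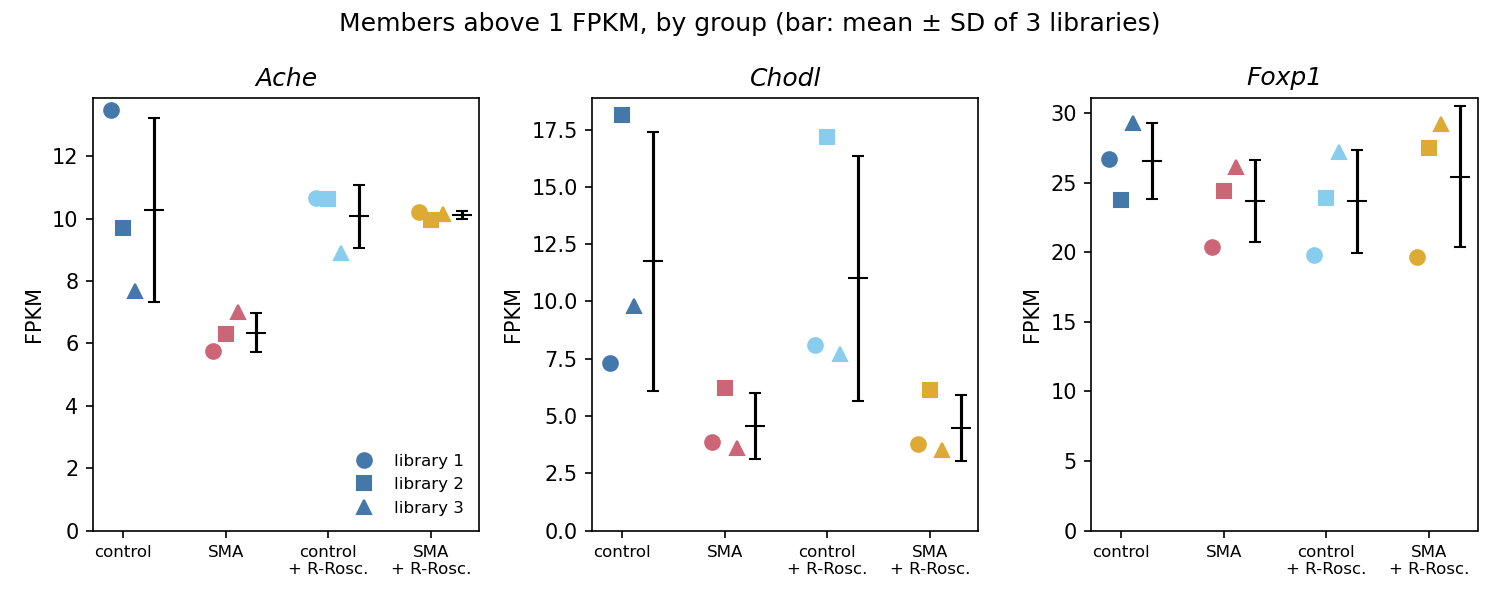
FPKM (vertical axes, from 0) of Ache, Chodl and Foxp1 in the 4 groups; circles, squares and triangles are libraries 1, 2 and 3, and the bars give the mean ± SD of 3 libraries. Untreated SMA libraries are the 3 lowest for Ache, all 6 SMA libraries are below all 6 control libraries for Chodl, and the groups overlap for Foxp1.

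Among the 3 genes most like Chodl in pattern were Man2a1, a Golgi mannosidase (Pearson r = 0.978 over the 12 libraries), and Kcnk1, a potassium leak channel (r = 0.969). Man2a1 stood at 12.1 to 20.0 FPKM in control and at 6.31 to 10.9 FPKM in SMA libraries. Foxp1 was followed most closely by Traf2 (r = 0.940), Emc1 (r = 0.937) and Phc3 (r = 0.920). As above, these are descriptions of shared libraries.

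The plot of fitted differences sets the 3 genes side by side. Of the 18 differences of Foxp1, Ache and Chodl over the 6 comparisons, which share libraries, 1 passed.

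**Figure D4:**
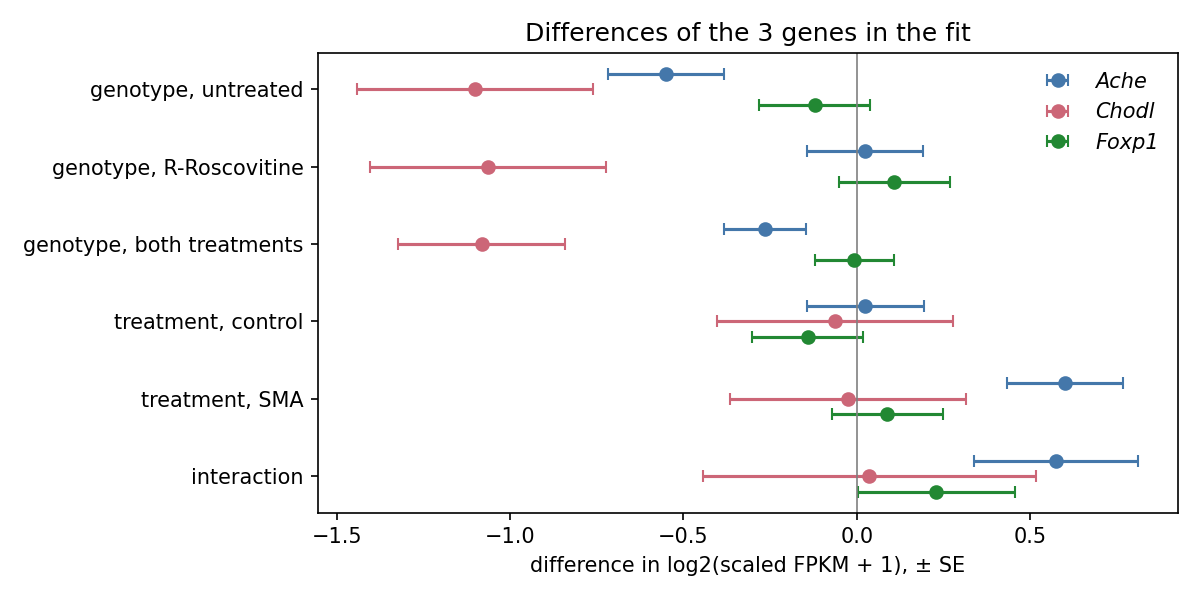
Difference in log2(scaled FPKM + 1), with its SE, of Ache, Chodl and Foxp1 in 6 comparisons (SMA minus control, treated minus untreated, and their interaction). Chodl lies near -1.1 in the 3 genotype comparisons, and Ache lies away from 0 in the untreated genotype comparison, in the treatment of SMA and in the interaction.

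The wider lists of the motoneuron and cholinergic programmes were read from the same averaged genotype comparison, in which limma called 4.83% of all genes. None of the list genes named below as risen or fallen passed with same-numbered pairs averaged. Of 20 fitted network genes, 2 rose in SMA (Nkx6-2 by 0.95 ± 0.24 and Neurod4 by 0.80 ± 0.21, both factors of ventral progenitors or newborn neurons) and 1 fell (Ebf3, a factor of newborn neurons, by 0.94 ± 0.22, SE, log2). The median of the 20 was 0.04, against -0.01 over all genes. Nkx6-2 and Neurod4 reached at most 0.863 and 0.176 FPKM in any control library. They entered the fit, which asks for 1 FPKM, through SMA libraries alone, so the filter favoured a rise. Of 21 fitted surface and subtype genes, Cadm1, a synaptic adhesion molecule, fell by 0.56 ± 0.15, and the median was -0.27. Of 15 fitted genes of choline metabolism, Chpt1, which makes phosphatidylcholine, rose by 0.62 ± 0.12, and the median was 0.04. Of 5 nicotinic and 3 muscarinic receptor genes, 0 passed limma's test (medians of -0.20 and -0.13), where 3483 of all genes had an unadjusted p under 0.05. No gene of these 5 lists passed limma's test in the other 5 comparisons, in which 0.00667% of all genes (genotype within a treatment) or 0% (treatment and interaction) passed. Between 188 and 2115 genes per comparison had an unadjusted p under 0.05 there.

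For genes of other cells and transmitters, the same comparison and the same share of 4.83% apply. Of 5 fitted genes for other transmitters 2 fell, Slc6a5 by 0.71 ± 0.14 and Gad1 by 0.63 ± 0.17, and the median was -0.48. Of 10 interneuron factors, Tfap2b fell by 0.64 ± 0.15, with a median of -0.37. Of 12 progenitor genes 8 rose, among them Olig2, a factor of motoneuron and oligodendrocyte progenitors, by 1.73 ± 0.31, with a median of 0.79. Of 11 astroglial genes 6 rose, among them Kcnj10, a glial potassium channel, by 2.52 ± 0.33, with a median of 0.94. Gfap, also among the 6, reached at most 0.297 FPKM in control and entered the fit through SMA libraries alone, so the filter favoured its rise. With same-numbered pairs averaged, 0 genes of these 4 lists passed. The summed astroglial level was 147 to 183 FPKM in untreated control, 225 to 310 in untreated SMA, 122 to 171 in treated control and 185 to 318 in treated SMA libraries, and the part of these cells in the level of Chodl was not tested.

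These list counts rest on few libraries. Of 132 fitted genes in the 16 lists, 22 passed limma's test in the averaged comparison, against 0 with same-numbered pairs averaged, 2 without control libraries 1 of both treatments and 1 without control libraries 2. Leaving out 1 library at a time gave 1 to 35, and the count moved by more than 1.5 times for each library except untreated control library 3, untreated SMA library 2 and treated control library 3.

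Other cell types were at low levels or did not differ by the test. Of 11 sensory neuron genes, 3 reached 1 FPKM in every library, among them Pou4f1, shared with dorsal interneurons (2.01 to 6.12 FPKM), and 7 stayed under it in every library. Of the 4 fitted ones, 0 passed (median -0.35). Of 5 fitted Schwann cell and neural crest genes, 0 passed (median -0.08). Endothelium, macrophages and skeletal muscle had 1, 2 and 1 fitted genes, of which 0 passed, and their summed levels were 2.38 to 8.59, 3.82 to 6.85 and 2.50 to 4.68 FPKM. Myog and Myf6, which define muscle cells, were at or near 0. These counts are from limma, where 4.83% of all genes passed.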

How the data were processed

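The authors deposited FPKM per gene with an interval and a status, made with FastQC 0.10.1, Trim Galore 0.4.0 and Cufflinks 2.2.1 on GRCm38, per the submitters' processing notes; libraries were made with a Lexogen mRNA kit, per the labels' protocols. The settings for alignment and strand were not given in the sources used here. Whether reads from overlapping genes on opposite strands were told apart is therefore not known. Antisense genes overlap Isl2, Lhx3 and Chat, at up to 0.0877, 0.0793 and 0.128 FPKM in any library. Isl2, Lhx3 and Chat themselves reached at most 0.161, 0.669 and 0.0605 FPKM. Members were matched by symbol, and lines sharing an identifier (19 identifiers) were summed. FPKM carry no counts. Low values times locus length (200 to 3000 bases, up to 10 reads) came in steps of 1 read, which gave the depth; 35.9% to 39.1% of them were whole within 0.01 reads, too few for a count model.

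For tests, FPKM were scaled by median-of-ratios factors and put on the log2(scaled FPKM + 1) scale, which understates changes of low genes. Genes at 1 FPKM or more in at least 3 of the 12 libraries, without small RNA genes (GENCODE M21 types), were fitted with limma 3.58.1 in R 4.3.3 (4 group means, eBayes with trend, two-sided, Benjamini-Hochberg threshold 0.05), 14982 in all, for 6 comparisons. Members outside the fit were compared by exact permutation of log2(FPKM + 1). The fit was tested on simulated data. Python 3.11.15, pandas 2.3.3, scipy 1.17.1 and matplotlib 3.10.9 were used.

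Members, gene lists, tests and alternatives were chosen with earlier results of these data known. Named were all members, and from each list the genes that passed, the most abundant or the textbook markers, and for each fitted member the 3 genes with the highest Pearson correlation. The lists cover the motoneuron transcriptional network, motoneuron surface and subtype genes, choline metabolism, nicotinic and muscarinic receptors, other transmitters, pan-neuronal genes, interneuron factors, sensory neurons, progenitors, astroglia, Schwann cells and neural crest, fibroblasts, endothelium, macrophages and skeletal muscle. Of 208 list entries, 207 were matched. A few genes that the rule would name are not reported here. Same-numbered libraries of a genotype correlated across treatments in their deviations from the group means (0.237 to 0.596 in 6 of 6 pairs), so alternatives took these numbers as pairs. The main fit and the permutation tests did not, and counted all libraries as independent. Across genotypes 7 of 12 such correlations exceeded 0.1 (-0.0566 to 0.322), 3 of 6 within a treatment. This was short of the rule that every one should, so numbers were not taken as pairs there, apart from the alternative with the number as a block. Alternatives covered pseudocount, filter, scaling, library weights, the pairing and leaving out libraries.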

Additional observations from a re-analysis of the deposited data

How the results depend on the processing

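All comparisons rest on 3 libraries per group, and 6 of the 9 genes are under 1 FPKM, where small differences were not detectable at this depth. The lower level of Chodl in SMA kept its direction under every alternative run, with values of -1.48 to -0.71 over the 3 genotype comparisons. Averaged over treatments it missed the threshold with no filter on low values (-1.08, limma adjusted p = 0.106), with no filter and a pseudocount of 0.1 (-1.22, adjusted p = 0.0971), with a replicate block of 1 mean per pair (-1.08, adjusted p = 0.189), and without control libraries 1 (-1.30) or 2 (-0.72), 2 settings chosen after seeing the data. Without treatment it passed with library weights (-1.48, adjusted p = 0.0387). With the number 1 to 3 as a block across genotypes, where 7 of 12 same-numbered correlations exceeded 0.1, it passed untreated (adjusted p = 0.00795) and treated (adjusted p = 0.0115). The blocks changed no other call of a member.

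Near-zero differences changed sign: Ache by treatment in control to -0.026 without control libraries 2, Foxp1 by genotype in treated libraries to -0.011 without control libraries 1, Foxp1 by genotype averaged to 0.0013 with library weights and 0.015 with quantile normalization, and Foxp1 by treatment in control to 0.0021 with library weights. Leaving out 1 library gave -0.064 to 0.073 for Ache by genotype in treated libraries and -0.15 to 0.21 by treatment in control. It gave -0.32 to 0.39 for the Chodl interaction, -0.22 to 0.17 by treatment in SMA and -0.42 to 0.30 in control. For Foxp1 it gave -0.012 to 0.26 by genotype in treated libraries, -0.066 to 0.070 averaged and -0.016 to 0.24 by treatment in SMA. For Isl1 it gave -0.0029 to 0.37 by treatment in control, for Lhx3 -0.016 to 0.17 by genotype untreated and -0.10 to 0.18 by treatment in control, and for Slc5a7 -0.0074 to 0.072 by treatment in SMA and -0.029 to 0.014 in control.

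The number of members that reached a threshold in any library moved from 3 at 1 FPKM to 5 at 0.5 FPKM and 7 at 0.1 FPKM. The number of genes past the threshold by genotype averaged, 723, became 2017 with library weights, 1 with no filter and with no filter and pseudocount 0.1, 1 with pair means, 1772 with the number block, and 64 or 13 without control libraries 1 or 2; leaving out 1 library gave 6 to 1361. Untreated, 1 gene became 458 with library weights, 4 with no filter and pseudocount 0.1, 327 with the number block and 2 without control libraries 1, and 1 to 4 leaving out 1 library. Treated, 1 gene became 15, 2, 252 and 2 under the same 4 settings, and 1 to 228. With no filter and pseudocount 0.1, 0 genes became 2 for treatment in control, 2 in SMA and 1 for the interaction, which was also 1 with no filter alone. The causes were not tested, and neither was the part of the larger number of genes adjusted over without a filter.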
